A study of Rattus norvegicus with 8 samples.

Results

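Crym, Otof, Nov and Vwa5b1 were examined across the somatic and the process compartment of rat hippocampal neurons that had received picrotoxin (PTX), a GABA-A receptor antagonist, or vehicle. These 4 genes, of 28909 gene symbols in the count table, were chosen by their large falls after PTX. Their PTX responses are therefore described without a test. Primary embryonic hippocampal neurons of Sprague-Dawley rats were cultured on porous filter inserts. These inserts keep cell bodies on the upper side and let axons and dendrites grow through to the lower side. Vehicle (ethanol) or PTX was present for 48 h, from day in vitro 18 until lysis at day in vitro 20. Ribosome-depleted RNA was sequenced from 2 libraries for each of 4 conditions, namely control somata, PTX somata, control processes and PTX processes. The labels do not say whether the 2 libraries of a condition came from separate cultures, so the p-values below measure only the spread between these libraries.

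The libraries held 12290890 to 18455662 reads assigned to genes. Outside the mitochondrial genome, somata libraries held 9517542 to 11227599 reads and process libraries 4702054 to 5491237. A tested gene had a median of 268 to 319 reads in somata libraries and 96 to 110 in process libraries, so values in processes carry more counting error. Levels are given as CPM, which are counts scaled to library size, after adjustment by trimmed mean of M values (TMM), with factors of 1.81 to 1.93 in somata and 0.486 to 0.57 in processes. Neuronal markers were abundant in both compartments, and so were astrocyte markers, with Gfap at a mean of 1680 CPM in control somata and 10200 CPM in control processes. The cultures labelled as neurons thus also held glial RNA on both sides of the filter.

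The 4 genes encode unrelated proteins. Crym encodes mu-crystallin, a cytosolic protein that binds thyroid hormone and also acts as a ketimine reductase in the breakdown of lysine through pipecolate. Otof encodes otoferlin, a membrane-anchored ferlin with several C2 domains that serves as a calcium sensor for vesicle release at the ribbon synapses of inner hair cells. Nov encodes the secreted matricellular protein CCN3, which binds integrins and Notch receptors at the cell surface. Vwa5b1 encodes a protein with a VIT domain and a von Willebrand factor A domain, the fold used by many proteins for contacts with other proteins. Chronic block of GABA-A receptors removes fast inhibition and raises network activity. Neurons answer such a rise over days with weaker excitatory synapses, a form of homeostatic plasticity called downscaling.

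Promoter windows are shown as a description, since the common fall of the members was fixed by their choice. RefSeq promoter windows of the GRCr8 build, from 250 bases before to 50 bases after the annotated start of the gene, were matched for 2 of the 4 members, Otof and Vwa5b1, and not for Crym and Nov. The Otof window lies on the plus strand at chr6:31647664-31647963 with a GC content of 58%, and the Vwa5b1 window on the minus strand at chr5:156135750-156136049 with a GC content of 46%. Capitals mark matches to the motifs searched, and each sequence is written 5′ to 3′ on the strand of its gene.
Otof: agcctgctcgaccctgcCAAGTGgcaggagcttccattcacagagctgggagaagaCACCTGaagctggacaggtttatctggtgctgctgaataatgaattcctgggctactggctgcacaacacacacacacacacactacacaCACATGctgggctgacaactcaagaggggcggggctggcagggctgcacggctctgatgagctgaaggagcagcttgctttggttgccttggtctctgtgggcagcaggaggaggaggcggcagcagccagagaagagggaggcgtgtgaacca
Vwa5b1: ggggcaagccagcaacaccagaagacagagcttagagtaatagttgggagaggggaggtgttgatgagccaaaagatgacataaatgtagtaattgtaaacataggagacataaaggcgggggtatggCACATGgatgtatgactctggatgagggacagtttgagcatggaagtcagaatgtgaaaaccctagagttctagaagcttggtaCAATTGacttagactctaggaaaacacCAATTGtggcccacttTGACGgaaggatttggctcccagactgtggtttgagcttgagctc
Both windows held 3 E-boxes (CANNTG), the letters bound by basic helix-loop-helix factors. With the start site at 0, those of Otof began at -233, -194 and -104, and those of Vwa5b1 at -122, -38 and -11. An E-box stood in 72.1% of all 33469 promoter windows of this length, so its presence does not set these windows apart. The Vwa5b1 window also held 1 core of the cAMP response element (TGACG) beginning at 5, as did 21.2% of all windows. The full cAMP response element (TGACGTCA, 1.83% of windows), the AP-1 motif (TGANTCA, 7.33%), the EGR motif (GCGTGGGCG, 0.544%), the nuclear receptor motif (AGGTCA, 16.2%) and the TEAD motif (GGAATG, 14.2%) were searched on both strands and their letters were not in either window. The core TGACG is contained in TGACGTCA.

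Crym showed the deepest fall of the members in somata. Its level was 65.6 and 64.2 CPM in the control somata libraries, and 12.4 and 11.7 CPM with PTX. In processes it was 55.9 and 36.05 CPM in controls, and 17.3 and 12.6 CPM with PTX. Every PTX library lay below every control library of its compartment, and the control process libraries stood further apart than any other pair. The choice by large falls favours such a separation, here and for the other members. In somata the mean went from 64.9 ± 1.04 to 12 ± 0.453 CPM (SD, n = 2), so 18.6% of the control level remained. In processes it went from 46 ± 14 to 15 ± 3.37 CPM (SD, n = 2), and 32.5% remained. The fitted log2 fold change was -2.43 (SE 0.193) in somata and -1.63 (SE 0.209) in processes. The lowest control library stood 5.19 times above the highest PTX library in somata and 2.08 times in processes. The read counts behind these levels ran from 1638 in a control somata library down to 125 in a PTX process library. In a bulk sample, fewer cells of one type and less RNA per cell cannot be told apart.

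Otof fell by nearly the same proportion in both compartments. The control somata libraries stood at 18.2 and 17.7 CPM, and the PTX somata libraries at 4.96 and 3.56 CPM. Control processes gave 21.7 and 13.0 CPM, and PTX processes 4.36 and 3.62 CPM. The PTX libraries of both compartments occupied one low range, well below all controls. Mean levels went from 18 ± 0.317 to 4.26 ± 0.994 CPM in somata and from 17.4 ± 6.16 to 3.99 ± 0.526 CPM in processes (SD, n = 2). This left 23.7% of the control level in somata and 23% in processes. On the log2 scale the change was -2.07 (SE 0.228) in somata and -2.13 (SE 0.276) in processes. The PTX process libraries rested on 38 and 36 reads of Otof.

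Nov was the member with the widest spread between replicates, with a fitted coefficient of biological variation of 18%. It was measured at 46.3 and 36.15 CPM in control somata and at 13.8 and 8.98 CPM in PTX somata. Processes held less of it, with 20.6 and 13.9 CPM in controls and 7.12 and 4.02 CPM with PTX. The groups did not overlap within a compartment, but the higher PTX somata library, at 13.8 CPM, lay just under the lower control process library, at 13.9 CPM. The somata mean went from 41.2 ± 7.17 to 11.4 ± 3.44 CPM and the process mean from 17.2 ± 4.79 to 5.57 ± 2.19 CPM (SD, n = 2). Of the control level, 27.7% remained in somata and 32.3% in processes. The log2 fold change was -1.85 (SE 0.248) in somata and -1.65 (SE 0.322) in processes.

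Vwa5b1 was the only member whose mean level was highest in control processes. Control somata held 11.4 and 8.30 CPM, and PTX somata 4.75 and 3.98 CPM. Control processes held 31.2 and 19.1 CPM, and PTX processes 5.86 and 4.525 CPM. The 2 PTX conditions overlapped each other, while control processes stood above every other library. The mean went from 9.85 ± 2.18 to 4.36 ± 0.542 CPM in somata and from 25.2 ± 8.54 to 5.19 ± 0.942 CPM in processes (SD, n = 2). PTX cultures thus kept 44.3% of the control level in somata and 20.6% in processes. The fitted log2 fold change was -1.17 (SE 0.246) in somata and -2.29 (SE 0.276) in processes. In RefSeq the long noncoding gene LOC108351047 overlaps Vwa5b1, and reads from the shared stretch cannot be assigned to one of them here.

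**Figure D1:**
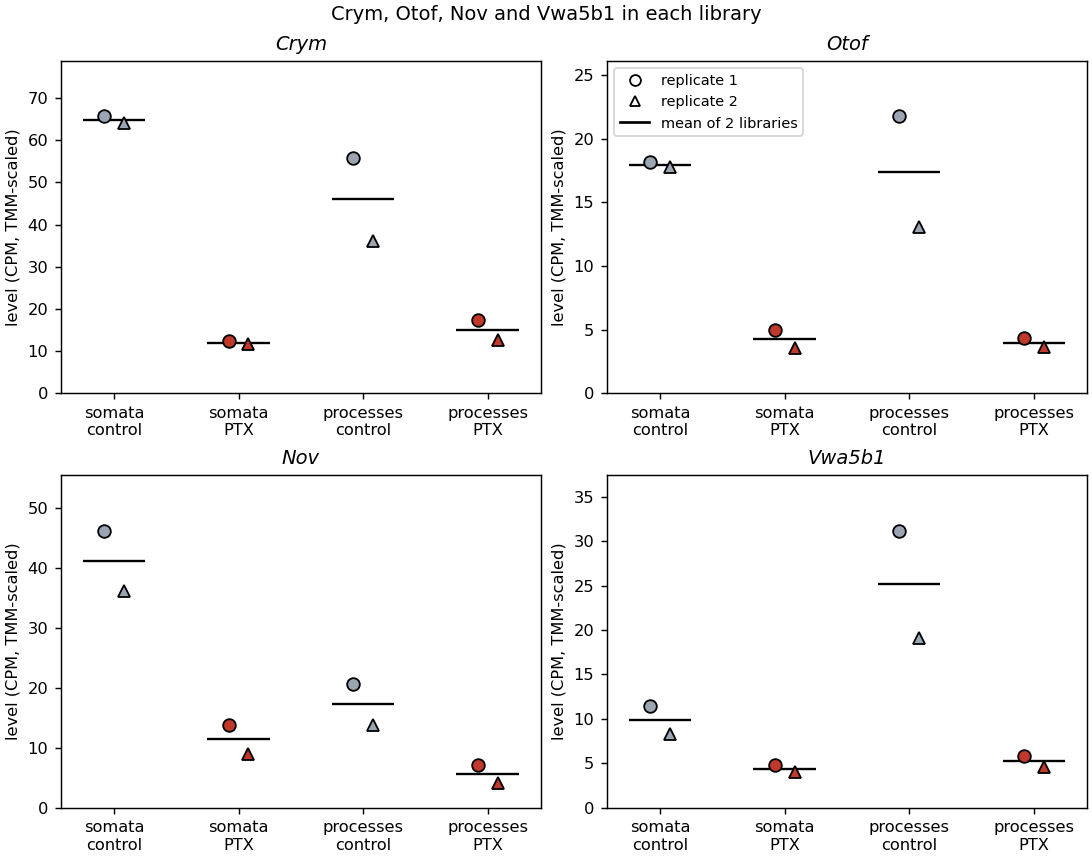
Levels of Crym, Otof, Nov and Vwa5b1 in each of the 8 libraries (y axis, TMM-scaled CPM from 0) by condition (x axis), with replicate 1 as a circle, replicate 2 as a triangle and a line at the mean of 2 libraries. Red PTX symbols lie below the grey control symbols of the same compartment in all 4 panels, which the choice of the members by large falls favours. Vwa5b1 alone has its highest mean in control processes.

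The order of the 4 conditions differed between the members. Crym ran from control somata through control processes and PTX processes to PTX somata, and no neighbouring conditions overlapped, although PTX processes and PTX somata were only just apart at 12.6 against 12.4 CPM. For Otof both control conditions overlapped, as did both PTX conditions. Nov kept the same compartment order under both treatments, with somata above processes. Vwa5b1 ran from control processes through control somata to the overlapping PTX conditions. Replicate 1 exceeded replicate 2 for all 4 members in each of the 4 conditions. Across all tested genes replicate 1 was higher for 49.9% in control somata, 53% in PTX somata, 51.7% in control processes and 50.6% in PTX processes. The part that this shared offset between replicates plays in the values of the members was not tested. With the replicate number added to the fit, their log2 fold changes with PTX were -2.44 (Crym), -2.09 (Otof), -1.87 (Nov) and -1.17 (Vwa5b1) in somata. In processes they were -1.62, -2.11, -1.64 and -2.26. Every condition held both replicate numbers, but the offset between them differed in size between conditions. Otof, for example, stood at 18.2 and 17.7 CPM in control somata and at 21.7 and 13.0 CPM in control processes.

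The falls were placed among those of all 14309 tested genes, those above 20 reads in 2 or more libraries. With edgeR's quasi-likelihood test at an adjusted p under 0.05, 1.5% of tested genes were lower and 2.09% higher with PTX in somata, and 2.1% were lower and 1.64% higher in processes. All 4 members were among the lower genes in both compartments, a count that the choice of members fixed. Counted from the lowest of all tested genes, Crym stood at 4, Otof at 6, Nov at 10 and Vwa5b1 at 71 in somata. In processes their places were 75, 28, 71 and 18. Among called genes that averaged 5 CPM or more and had no overlap between PTX and control libraries, 191 were lower in somata. Crym held rank 1, Otof rank 2 and Nov rank 3 among these, and Vwa5b1 stood at rank 27. Just behind came Bhlhe22 with a log2 fold change of -1.78 (SE 0.136) and Neurod6 with -1.64 (SE 0.171), which encode basic helix-loop-helix transcription factors of pyramidal neurons. Among the 274 such genes in processes, Vwa5b1 held rank 1 and Otof rank 2, while Nov stood at rank 11 and Crym at rank 12. The ranks between them began with Cabp7, a calcium-binding protein gene, at -2.00 (SE 0.295), Rasal1, which encodes a Ras GTPase-activating protein, at -1.78 (SE 0.232), and Hrh3, which encodes a histamine receptor, at -1.76 (SE 0.317).

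The ranks depended on the level required. With a floor of 1 CPM, genes of low level moved ahead of the members. In somata Htr1a, which encodes a serotonin receptor, came first with a log2 fold change of -3.75 (SE 0.438) between means of 2.19 and 0.16 CPM, and Crym moved to rank 2, Otof to 4, Nov to 6 and Vwa5b1 to 42. Itga11 and Chodl also stood ahead of Nov in somata. In processes Ccdc33, Arhgap8, Mgat4c and Ppp1r3e took the first 4 ranks, Vwa5b1 moved to rank 5, Otof to 8, Nov to 22 and Crym to 24. These genes rested on as few as 2 reads in a library, whereas no library held fewer than 36 reads of a member.

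A log2 fold change below -1 in both compartments was found for 35 of 10208 genes that averaged 5 CPM or more over the 8 libraries, or 0.343%. All 4 members were in this set, as their choice entails. It also held Bhlhe22, Neurod6, Cabp7, the calcium/calmodulin-dependent kinase gene Camk2a (-1.13 in somata and -1.45 in processes) and the neuronal calcium sensor gene Hpca (-1.56 and -1.14). The members differed in how their fall was divided between the compartments. The log2 fold change in processes minus that in somata was 0.80 (SE 0.281) for Crym and -1.12 (SE 0.373) for Vwa5b1, in opposite directions. For Otof it was -0.06 (SE 0.364) and for Nov 0.20 (SE 0.411), both smaller than their errors. These differences were built from the contrasts that chose the members and are given without a test. Across all 14309 tested genes edgeR called 0 differences of this kind, with 572 at an unadjusted p under 0.05 and a smallest adjusted p of 0.115, and DESeq2 called 4.

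**Figure D2:**
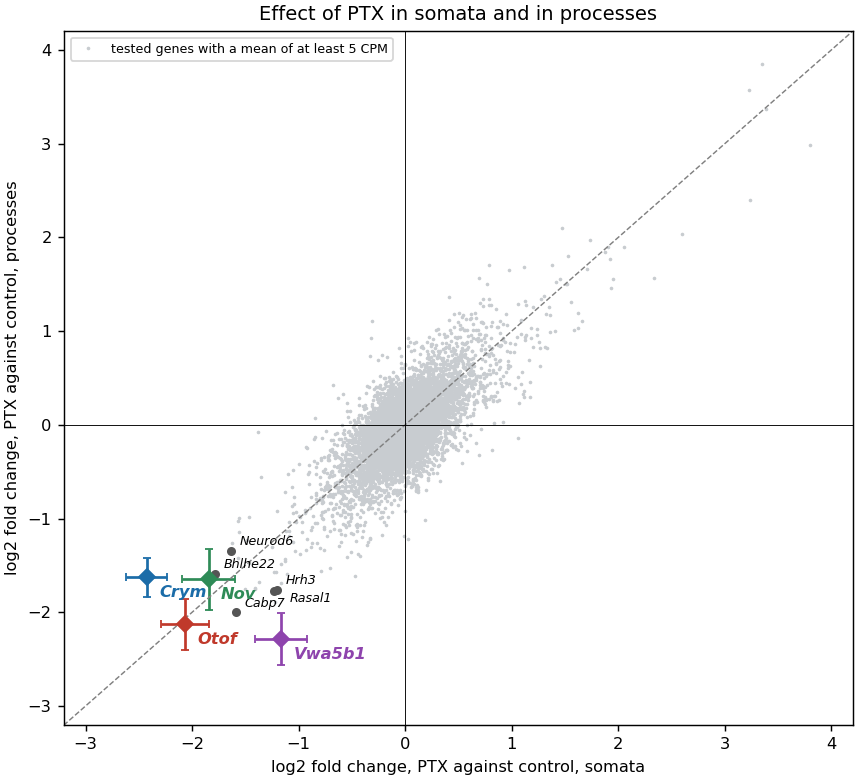
Log2 fold change with PTX in somata (x axis) against that in processes (y axis) for tested genes averaging 5 CPM or more (grey points), with the members as coloured diamonds (bars, SE) and neighbouring genes of the ranking in dark grey. The dashed line marks equal change: Otof lies near it, Crym to its upper left at -2.43 in somata and -1.63 in processes, and Vwa5b1 to its lower right at -1.17 and -2.29.

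The distribution between processes and somata was not itself used to choose the members, although it was read from the same libraries. A high level in control processes raises processes against somata and also enlarges a fall with PTX in processes. The p-values of the members below are therefore not independent of their choice. In control cultures 25.8% of tested genes were higher and 21.9% lower in processes (edgeR's quasi-likelihood test, adjusted p under 0.05), so a call in this comparison is common. Nov was lower in processes (log2 fold change -1.25, SE 0.258, edgeR adjusted p = 0.00249), and its ratio of process to somata level was 0.446 and 0.383 in the replicates. Vwa5b1 was higher, at 1.36 (SE 0.235, edgeR adjusted p = 0.000827), with ratios of 2.74 and 2.31. Its value lay at percentile 93.1 of all tested genes, and that of Nov at percentile 5.54. Crym was lower in processes by a smaller margin, at -0.50 (SE 0.185, edgeR adjusted p = 0.0464), with ratios of 0.851 and 0.562. This call for Crym was lost without control somata replicate 1 (edgeR adjusted p = 0.129), control somata replicate 2 (0.101), PTX somata replicate 2 (0.0506) or control process replicate 2 (0.326). Otof did not pass the threshold, at -0.04 (SE 0.219, edgeR adjusted p = 0.884), and its libraries from the 2 compartments overlapped.

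In PTX cultures, 25.7% of tested genes were higher and 24% lower in processes. Nov again was lower, at -1.06 (SE 0.312, edgeR adjusted p = 0.0162), with ratios of 0.514 and 0.448. This call was lost without PTX somata replicate 1 (edgeR adjusted p = 0.106) or PTX process replicate 2 (0.164). The other members did not pass the threshold, with log2 fold changes of 0.30 (SE 0.212) for Crym, -0.11 (SE 0.291) for Otof and 0.24 (SE 0.294) for Vwa5b1 and edgeR adjusted p-values of 0.255, 0.78 and 0.523. The mean ratio of process to somata level of Vwa5b1 was 2.56 in control and 1.19 in PTX cultures, and that of Crym 0.708 and 1.24. Such shifts restate the differences between compartments given above, which were built from the contrasts that chose the members. These compartment values are relative to the median of all tested genes, which TMM scaling placed at -0.05. Scaling by library size alone moved that median to -1.86 in control and -1.87 in PTX cultures and moved the values of Vwa5b1 with it to -0.47 and -1.59, and that of Crym in PTX cultures to -1.53. All 3 stayed above the median of that scaling.

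**Figure D3:**
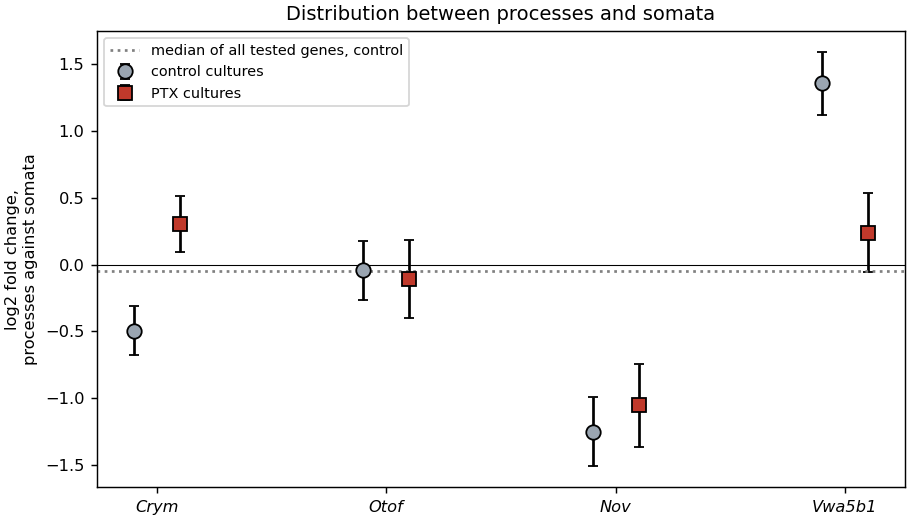
Log2 fold change of processes against somata (y axis) for each member (x axis) in control cultures (grey circles) and PTX cultures (red squares), with SE bars and the median of all tested genes in controls at -0.05 as a dotted line. Under TMM scaling Nov lies below 0 under both treatments and Vwa5b1 lies at 1.36 in control and 0.24 in PTX cultures, while scaling by library size alone moves the median to -1.86 and with it Vwa5b1 to -0.47 in control cultures.

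Genes related to Crym belong to thyroid hormone signalling and to lysine breakdown. For the list counts that follow, 15.6% of all tested genes had an unadjusted p under 0.05 with PTX in somata and 16.6% in processes (edgeR), and their median log2 fold change was -0.01 in each. At the adjusted threshold 1.5% were called lower and 2.09% higher in somata, and 2.1% lower and 1.64% higher in processes. A short list without a call therefore says little about its genes. From thyroid hormone signalling some genes are given as examples, without a count. The receptor gene Thra had log2 fold changes of -0.21 (SE 0.149) in somata and -0.26 (SE 0.149) in processes, and Thrb 0.17 (SE 0.151) and -0.17 (SE 0.163), with none of these past the threshold. Neurogranin (Nrgn), a thyroid hormone-responsive gene of forebrain neurons, had -0.84 (SE 0.27) in somata and -0.79 (SE 0.297) in processes without passing it. Larger values in processes, also without a call, went in both directions. Thrsp had -0.55 (SE 0.361) in somata and -1.37 (SE 0.424) in processes, and Rxrg -0.53 (SE 0.206) and -1.09 (SE 0.291). Slco1c1 had 0.76 (SE 0.297) and 1.04 (SE 0.333). Of the deiodinase genes, Dio1 and Dio3 did not pass the read filter. None of 6 lysine breakdown genes was called in either compartment by edgeR or DESeq2, with 2 in somata and 0 in processes at an unadjusted p under 0.05. The aminoadipate semialdehyde synthase gene Aass, which opens the saccharopine branch, had 0.24 (SE 0.278) in somata and -0.08 (SE 0.291) in processes. Pipox, whose product oxidises pipecolate, had 0.94 (SE 0.253, edgeR adjusted p = 0.0752) in somata and -0.20 (SE 0.408) in processes.

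None of the genes related to Otof was called lower by edgeR. The other ferlins were scarce, and 3 of 5 passed the read filter with no call by edgeR or DESeq2. An unadjusted p under 0.05 was reached by 2 of these in somata and 1 in processes. Dysferlin (Dysf), a membrane repair protein, had log2 fold changes of 1.16 (SE 0.338) in somata and 0.64 (SE 0.468) in processes, myoferlin (Myof) 0.49 (SE 0.166) and 0.52 (SE 0.23), and Fer1l5 -0.53 (SE 0.324) and -0.77 (SE 0.455). Of 11 tested genes listed with Otof for roles at synapses, edgeR called 1 in processes and 0 in somata. In somata 3 had an unadjusted p under 0.05. Cabp1, which encodes a calcium-binding modulator of calcium channels, was higher in processes at 0.86 (SE 0.163, edgeR adjusted p = 0.0187) and had 0.55 (SE 0.148, edgeR adjusted p = 0.0752) in somata. The vesicular glutamate transporter gene of hair cells, Slc17a8, had -1.62 (SE 0.523, edgeR adjusted p = 0.138) in somata, between means of 1.28 and 0.419 CPM, and 0.14 (SE 0.658) in processes. The active zone genes Bsn (-0.23 in somata and -0.54 in processes) and Pclo (0.01 and -0.11) were not called by edgeR, and DESeq2 called Bsn in processes.

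Genes related to Nov were not called by edgeR in either compartment. Of the CCN family, which the table lists under its older symbols, Cyr61 and Ctgf passed the read filter, and Wisp1, Wisp2 and Wisp3 did not. Cyr61 had 0.72 (SE 0.202) in somata and 1.18 (SE 0.367) in processes, with edgeR adjusted p-values of 0.0854 and 0.119. Ctgf had -0.45 (SE 0.35) and -0.66 (SE 0.569). DESeq2 called neither, and 1 of the 2 had an unadjusted p under 0.05 in each compartment. None of 11 tested receptors, binding partners and Notch targets passed edgeR's test, with 2 in somata and 3 in processes at an unadjusted p under 0.05, and DESeq2 called 1, Itga6, in somata. Their median was 0.09 in somata and 0.21 in processes. Among them the integrin subunit genes Itgav had 0.12 (SE 0.121) and 0.42 (SE 0.127) and Itga6 0.59 (SE 0.146) and 0.30 (SE 0.159), while Notch1 had -0.17 (SE 0.155) and -0.02 (SE 0.162).

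The relatives of Vwa5b1 were not called either. Of 14 listed genes with a VIT or von Willebrand factor A domain, 8 were tested and none passed with edgeR or DESeq2, while 2 in somata and 3 in processes had an unadjusted p under 0.05. The paralogue Vwa5b2 had -0.59 (SE 0.172, edgeR adjusted p = 0.0945) in somata and -0.52 (SE 0.189, edgeR adjusted p = 0.183) in processes. Vwa5a had 0.14 (SE 0.137) and 0.38 (SE 0.158). The median of the list was -0.16 in somata and -0.34 in processes.

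**Figure D4:**
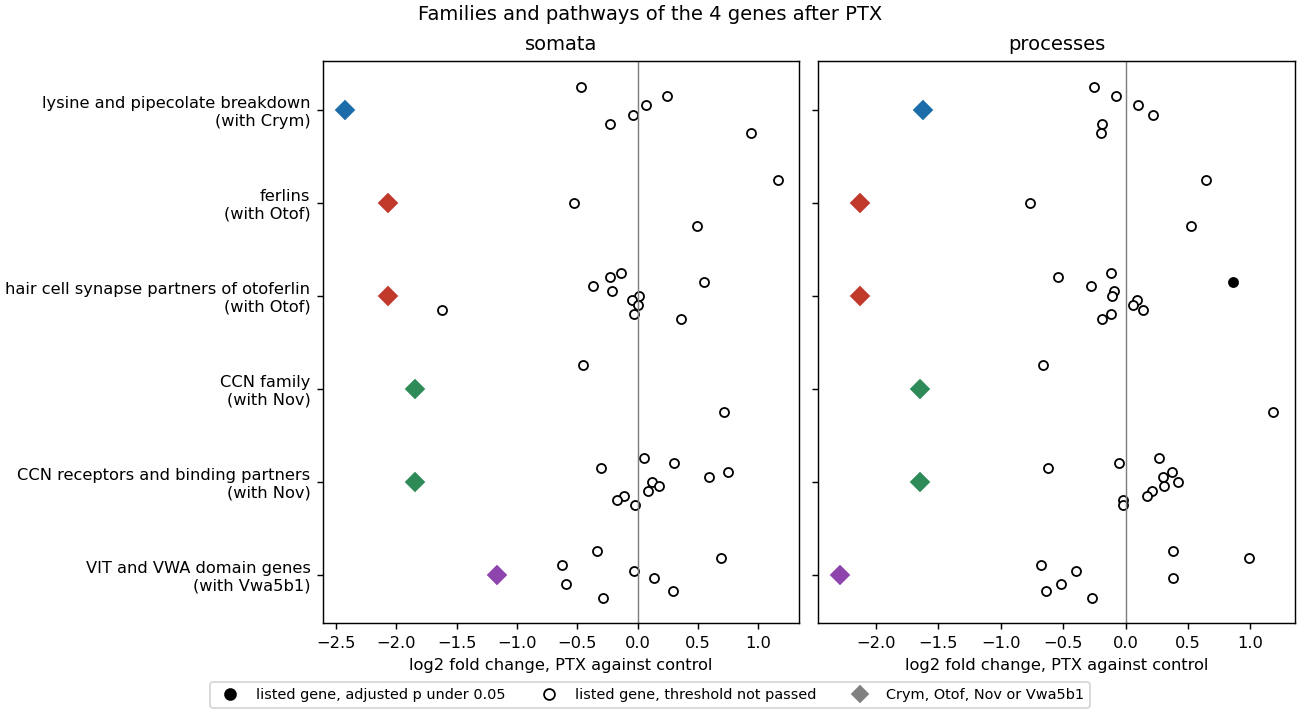
Log2 fold change with PTX (x axis) in somata (left) and processes (right) for the tested genes of 6 family and pathway lists (y axis), filled where the adjusted p of edgeR's test is under 0.05, with the related member as a coloured diamond. The filled point is Cabp1 at 0.86 in processes. The low position of the members was fixed by their choice on this change.

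Activity-regulated genes show the state of the cultures in which the members were low. Of 16 tested, 9 were higher with PTX in somata and 8 in processes, against the 2.09% and 1.64% of all tested genes given above, and none was lower (edgeR, adjusted p under 0.05). Bdnf, which encodes a neurotrophin, stood at 2.05 (SE 0.175) in somata and 1.89 (SE 0.205) in processes. The immediate early genes Fos (1.42 and 1.52) and Npas4 (1.74 and 1.97) and the synaptic pentraxin gene Nptx2 (1.93 and 1.46) were also higher in both. The remaining called genes were Fosb, Nr4a1 and Homer1 in both compartments, Junb and Inhba in somata and Nr4a2 in processes. Arc had 0.43 (SE 0.176) and 0.41 (SE 0.18) and Egr1 0.23 (SE 0.122) and 0.20 (SE 0.143) without a call.

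Markers of the cell types that the cultures could hold were set beside the falls. The 6 general and excitatory neuron markers summed to 1840 to 2050 CPM in control somata and 1580 to 1750 CPM in PTX somata, and to 5090 to 5380 and 3950 to 4610 CPM in processes. Of these markers Rbfox3, which encodes NeuN, was lower in somata at -0.67 (SE 0.135, edgeR adjusted p = 0.0221), and Slc17a7, a vesicular glutamate transporter gene of excitatory neurons, was higher in processes at 0.73 (SE 0.137, edgeR adjusted p = 0.0172). DESeq2 called Slc17a7 in processes and did not call Rbfox3. Neuronal marker sums were thus lower with PTX in both compartments, and their part in the falls was not tested. Map2, which was not called, made up most of the sum in processes, at means of 4610 CPM in control and 3650 CPM with PTX. Its log2 fold change was -0.16 in somata and -0.34 in processes. Tubb3 had -0.42 and -0.47, Syt1 -0.32 and -0.42 and Snap25 -0.03 and -0.12, all without a call. Slc17a7 had -0.33 in somata. Of the 6 markers, 3 in somata and 5 in processes had an unadjusted p under 0.05 (edgeR). The shares of all tested genes were 15.6% and 16.6%. None of 5 markers of CA1 pyramidal cells was called by edgeR or DESeq2, with 1 in somata and 2 in processes at an unadjusted p under 0.05. Their sum ran from 47.7 to 58.8 CPM in control and 39.3 to 54.6 CPM in PTX somata, and from 46.4 to 72.4 and 49.7 to 64.4 CPM in processes, so the groups overlapped in both compartments. None of 4 tested markers of dentate granule cells was called by either tool, with 2 and 3 at an unadjusted p under 0.05, and their sums of 59.4 to 73.4 CPM in control and 56.8 to 62.6 CPM in PTX somata overlapped, while those in processes, 37.5 to 45.3 and 28.9 to 33.8 CPM, did not. Of 4 tested CA3 markers, Nptx1 was higher at 0.88 (SE 0.16, edgeR adjusted p = 0.0134) and Grik4 lower at -0.53 (SE 0.127, edgeR adjusted p = 0.0462) in somata, and the sum was 84.9 to 86 CPM in control and 112 to 119 CPM in PTX somata, and 60.7 to 83.3 and 86 to 101 CPM in processes. Nptx1 carried the higher sums, at means of 44.2 CPM in control and 81.4 CPM in PTX somata, and 33.1 and 53.1 CPM in processes. Bok and Cdh24 were not called, at -0.16 and 0.04 in somata and 0.11 and 0.37 in processes. DESeq2 called Nptx1 in both compartments and did not call Grik4.

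Among the interneuron markers, the calls were those of Gad1 and Gad2, and these were higher with PTX. Of 7 tested interneuron markers, the GABA synthesis genes Gad1 (0.82, SE 0.171, edgeR adjusted p = 0.0247) and Gad2 (0.92, SE 0.204, edgeR adjusted p = 0.0328) were higher in somata, and Gad2 also in processes (0.92, SE 0.211, edgeR adjusted p = 0.0384). The interneuron sum was 240 to 342 CPM in control and 418 to 551 CPM in PTX somata, and 135 to 175 and 219 to 287 CPM in processes. Gad1 and Gad2 made up most of this sum, at means of 77.6 and 134 CPM in control somata and 137 and 254 CPM in PTX somata. The other tested markers were not called, at -0.02 (Slc32a1), 0.31 (Sst), 1.18 (Vip), 0.07 (Lhx6) and 1.27 (Npy) in somata. In processes they stood at 0.16, 0.28, 0.86, 0.45 and 0.61. Of 6 astrocyte markers, the gap junction gene Gja1 was lower in somata at -0.61 (SE 0.122, edgeR adjusted p = 0.0215), and the astrocyte sum was 3460 to 3910 CPM in control and 2600 to 3620 CPM in PTX somata, and 12400 to 13900 and 10500 to 11800 CPM in processes. The part of these markers in the falls of the members was not tested. None of 7 oligodendrocyte lineage markers and none of 5 fibroblast markers was called by edgeR or DESeq2, and of these 2 fibroblast markers had an unadjusted p under 0.05 in somata. No microglial marker passed the read filter, with Cx3cr1 at 0 or 1 read in every library. Of the endothelial markers only Kdr was tested, and it was higher in somata at 1.41 (SE 0.242, edgeR adjusted p = 0.0102), while Cldn5 had 0 reads in every library.

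Likeness over the 8 libraries differed between pairs of members. Pearson's r of log2 CPM was 0.975 between Crym and Otof, 0.853 between Crym and Nov, between Otof and Nov and between Otof and Vwa5b1, 0.776 between Crym and Vwa5b1, and 0.514 between Nov and Vwa5b1. The points are 4 pairs of libraries that share their condition, so each r mostly reflects 4 group levels and is given as a description. All members were chosen by falls with PTX, which favours a high r among them. The 5 genes most like each member were sought among 10204 other genes averaging 5 CPM or more.

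Nov had the closest match, Neurod6 (r = 0.995), and was also matched by the LIM-domain transcription regulator gene Lmo3 (0.990), Gdpd2 (0.988) and the proline dehydrogenase gene Prodh1 (0.985). The log2 fold changes of Neurod6 were close to those of Nov, at -1.64 in somata and -1.34 in processes. Vwa5b1 was matched by Dpysl5 (r = 0.991), which encodes a collapsin response mediator protein, the copine gene Cpne5 (0.988), AABR07031491.2 (0.986) and Tef (0.983), a transcription factor gene. Like Vwa5b1, these genes had lower log2 fold changes in processes than in somata, for example -0.93 against -0.56 for Dpysl5 and -0.95 against -0.45 for Cpne5, as their choice by likeness favours.

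Crym was matched by Lrpap1 (r = 0.981), which encodes a chaperone of the LDL receptor family, Gabra5 (0.979), which encodes a GABA-A receptor subunit, the transcription factor gene Rfx3 (0.972), LOC100911581 (0.967) and the protocadherin gene Pcdh19 (0.967). Gabra5 had log2 fold changes of -0.77 in somata and -0.49 in processes. Otof was matched by LOC103690141 (r = 0.980), Nyap2 (0.979), the RNA-binding protein gene Celf2 (0.974) and Lrpap1 (0.971). A high r here says nothing of the size of a change: Lrpap1 had log2 fold changes of -0.23 in somata and -0.20 in processes, against -2.43 and -1.63 for Crym. The names also rested on the measure and the scaling. Spearman's rank correlation kept 0 of 5 names for Crym and Otof, 2 for Nov and 1 for Vwa5b1, and scaling by library size alone kept 1 for Crym, 0 for Otof, 2 for Nov and 0 for Vwa5b1.

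**Figure D5:**
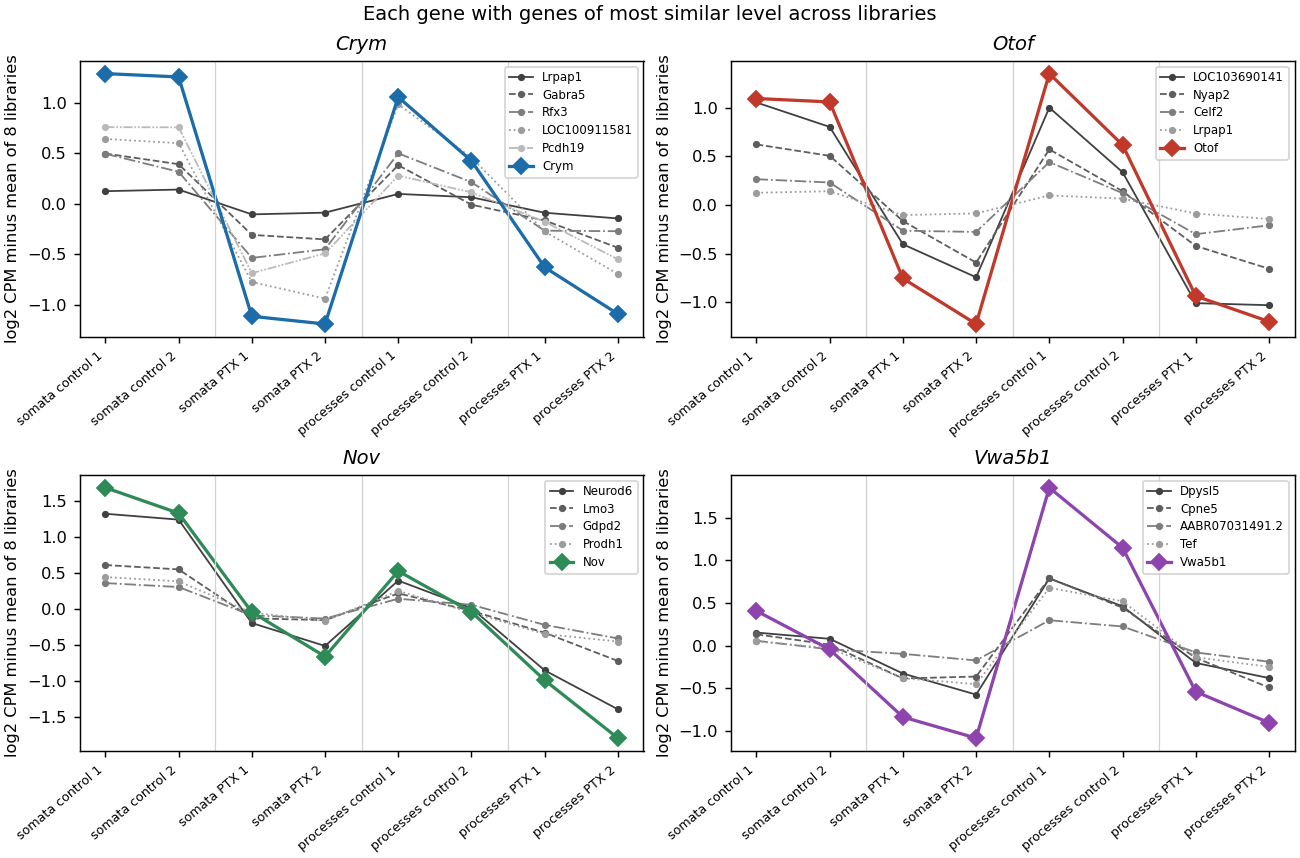
Log2 CPM minus the mean over 8 libraries (y axis) in each library (x axis) for every member (thick coloured line) and genes with the highest Pearson's r to it (thin grey lines), with lines joining the libraries only to guide the eye. Neurod6 follows Nov closely in size as well as shape, whereas Lrpap1 follows Crym in shape with a log2 fold change of -0.23 in somata.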

How the data were processed

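Ribosome-depleted RNA-seq of 8 libraries was analysed, 2 for each of control somata, PTX somata, control processes and PTX processes, grouped by their labels. Per the study's methods, the authors removed adapters, mapped reads to Rnor_6.0, counted them per gene with featureCounts and summed counts by symbol. The submitters' processing notes name STAR as aligner and the study's methods Subread subjunc. The deposited values are raw counts for 28909 symbols without normalization. Gene copies under 1 symbol are thus merged, and the origin of reads from overlapping or near-identical genes is uncertain. The authors' own comparison tables, which hold fold changes, CPM and p-values, were not used.

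The 14309 genes above 20 reads in 2 or more libraries entered 1 edgeR 4.0.16 fit over all 8 libraries (R 4.3.3) with TMM factors, 1 coefficient per condition, quasi-likelihood F tests and Benjamini-Hochberg adjustment over all tested genes at 0.05. Standard errors were derived from the fold change and its F statistic. CPM were TMM-scaled, and log2 CPM used a prior count of 2. The script was tested on simulated counts. The labels number the replicates without saying what the number marks, so no replicate block was used.

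The members and the gene lists were chosen with earlier results of these data known. Named genes were the members, the 5 lowest called genes per compartment averaging 5 CPM or more over the 4 libraries compared and no overlap between groups, the 5 genes with the highest Pearson's r to each member, and every called gene of the lists. Other genes of the lists, of the 1 CPM ranking and of the set that fell in both compartments were named as examples after their values were seen. Some genes that these rules name are not reported here, and thyroid hormone genes are for this reason given as examples without list counts. Motifs were searched in the RefSeq promoter windows as exact matches. Alternatives were DESeq2 1.42.0, a likelihood ratio test, other scaling factors, no read filter, a fit of only the libraries compared, a replicate block, a threshold of 0.01 and leaving out each library.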

Additional observations from a re-analysis of the deposited data

How the results depend on the processing

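With 2 libraries a condition, counts of called genes depended on the test. For PTX in somata (513) and processes (535) they were 972 and 949 with a likelihood ratio test, 1141 and 1129 with no read filter, 172 and 132 at a threshold of 0.01, and 116 to 568 and 97 to 481 with each library left out. The fit of only the 4 process libraries gave 299. For the difference between compartments (0) they were 4 with the likelihood ratio test, 4 with DESeq2 and 10 with no filter. Library size alone moved the median of all tested genes from -0.05 to -1.86 in control and -1.87 in PTX cultures. It gave 13462 compartment calls in control and 13499 in PTX cultures, called Otof lower in processes at -1.87 and -1.93, and reversed Vwa5b1 to -0.47 and -1.59 and Crym in PTX cultures to -1.53. These signs follow that shift of the median.

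With each library left out, the PTX log2 fold changes of the members kept their direction, from -2.47 to -2.39 (Crym), -2.34 to -1.86 (Otof), -2.20 to -1.58 (Nov) and -1.39 to -0.93 (Vwa5b1) in somata and from -1.91 to -1.28, -2.45 to -1.71, -2.10 to -1.28 and -2.60 to -1.89 in processes. Under the 9 other settings Crym in somata ran from -2.45 to -2.36. Processes against somata ran from -0.85 to -0.22 (Crym), -0.46 to 0.28 (Otof), -1.57 to -0.996 (Nov) and 0.96 to 1.67 (Vwa5b1) in control cultures and from 0.06 to 0.52, -0.32 to 0.16, -1.51 to -0.69 and 0.05 to 0.42 in PTX cultures. The difference between compartments ran from 0.52 to 1.15 (Crym), -0.38 to 0.36 (Otof), -0.26 to 0.57 (Nov) and -1.43 to -0.72 (Vwa5b1). With 1 library left in a condition, that library is assumed to vary like the others.

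With the replicate number as a block, 2002 genes were called in somata, 1601 in processes and 15 for the difference, including all 513 and 535. Deviations of same-numbered libraries correlated at 0.274 to 0.54, and the common dispersion went from 0.0132 to 0.00459. Since the labels do not say what the number marks, this is a hint of pairing from the data. The block changed no compartment call of a member.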
